A study of Rattus norvegicus with 20 samples.

Results

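Keratins are the intermediate filament proteins of epithelial cells, and each filament is built from pairs of a type I and a type II keratin. In the mammary gland the inner, luminal layer that secretes milk carries the simple-epithelial keratins Krt8 and Krt18, which pair with each other, together with Krt19 and Krt7. The outer, basal layer of contractile myoepithelial cells, which squeezes milk out when oxytocin is released, carries the pair Krt5 and Krt14 and, in part of the cells, Krt17. Krt17 is also known in skin as a keratin that is switched on by injury and stress.

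The keratins described here were 4 luminal genes (Krt7, Krt8, Krt18 and Krt19) and 3 basal genes (Krt5, Krt14 and Krt17), chosen by their symbols as markers of the 2 layers. Values were found for 6 of the 7, among 16748 genes in all; Krt7 is not analysed here. RNA came from the fat layer of milk of wild-type Sprague-Dawley dams that received lipopolysaccharide (LPS), a bacterial membrane component that activates innate immune cells, or saline free of pyrogens when their litter was at postnatal day 10. The 4 groups were LPS dams milked on postnatal day 11 (P11 LPS), saline dams milked on day 11 (P11 saline), LPS dams milked on day 10 (P10 LPS) and saline dams milked on day 10 (P10 saline), each with 5 libraries. Day 11 was 24 h and day 10 was 2 h after the injection. All groups shared isoflurane anaesthesia, 0.2 mL of oxytocin at 20 USP units per mL, and expression of milk by hand. The labels give 14 dams, of which 3 LPS and 3 saline dams were milked at both times. Day, hours since injection and, for those dams, an earlier milking cannot be told apart in the comparison of the 2 days.

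Milk fat globules carry cytoplasm of the luminal secretory cell, and milk also holds whole cells, so a bulk library mixes both sources. Fewer cells of a type and less RNA per cell cannot be told apart in it. Between 10743 and 12985 genes were above 0 per library. The number of reads per library is unknown, as normalised values do not give it. Levels below are normalised counts, obtained by inverting the deposited log2 values; no transcript lengths were at hand, so levels are compared between groups and not between genes. Differences between groups are on the deposited log2 scale, which compresses changes of rare genes. One P11 saline library, number 2, had keratin values near those of day 10. The tested differences of the keratins that involve P11 saline are given with and without it. Some other genes of that library were near day 10 too. Elf5 had 50900 normalised counts in it (5219 to 14376 in the other P11 saline libraries), and Cldn4 had 3439 (79299 to 97228). One spread per gene was fitted over all 4 groups, so library 2 also widened the keratin intervals of comparisons that it is not in. For Krt17 between the days in LPS dams, the SE was 0.61 with it and 0.22 without it.

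Promoter sequences were matched for 3 of the 6 keratins. Krt8 and Krt18, whose proteins pair with each other in filaments, lie beside each other in the rat genome. Krt5, which did not pass the test between the days under either injection, lies on the same chromosome. These 3 sequences are shown because they were the ones at hand, and they were not chosen as a contrast. Each is the 250 bases before the annotated start from RefSeq (assembly GRCr8; the deposited values rest on rn6), with capitals marking the motifs searched. Krt8 is from chr7:135010340-135010589, minus strand, Krt18 from chr7:135035918-135036167, plus strand, and Krt5 from chr7:134730570-134730819, minus strand.
Krt8: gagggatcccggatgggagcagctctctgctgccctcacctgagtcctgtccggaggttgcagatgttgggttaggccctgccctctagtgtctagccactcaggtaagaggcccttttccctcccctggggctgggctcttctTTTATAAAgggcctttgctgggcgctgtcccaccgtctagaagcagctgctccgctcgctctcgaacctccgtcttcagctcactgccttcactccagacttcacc
Krt18: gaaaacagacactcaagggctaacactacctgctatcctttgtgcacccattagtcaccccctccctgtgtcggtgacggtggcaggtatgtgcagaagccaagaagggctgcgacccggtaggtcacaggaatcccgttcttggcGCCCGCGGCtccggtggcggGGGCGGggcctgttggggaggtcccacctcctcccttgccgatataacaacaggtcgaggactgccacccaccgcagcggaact
Krt5: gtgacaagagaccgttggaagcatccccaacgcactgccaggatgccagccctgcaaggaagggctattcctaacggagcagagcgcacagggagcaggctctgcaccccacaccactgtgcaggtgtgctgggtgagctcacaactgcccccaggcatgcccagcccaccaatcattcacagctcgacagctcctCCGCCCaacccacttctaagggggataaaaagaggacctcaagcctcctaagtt

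Searched on both strands of all 33469 promoters of this length were 4 motifs: TATAAA, which helps place the start of transcription; GGGCGG, bound by Sp1; TGANTCA, bound by the stress-responsive factor AP-1; and GCCNNNGGC, bound by AP-2. The Krt8 window held TATAAA, which 12.9% of all promoters hold, 104 to 99 bases before the start, with an overlapping match on the other strand 106 to 101 bases before it. The Krt18 window held GGGCGG 84 to 79 bases before the start, found in 30.5% of all promoters, and GCCNNNGGC 104 to 96 bases before it, found in 12.6%. The Krt5 window held GGGCGG on the other strand, 54 to 49 bases before the start. TGANTCA, found in 6.34% of all promoters, matched in none of the 3 windows, which says only that these letters are not there.

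Between day 10 and day 11, 5 of the 6 keratins rose, from both layers and under both injections: Krt8, Krt18 and Krt19 of the luminal group and Krt14 and Krt17 of the basal group. In LPS dams 5 of 6 were called higher at P11 (limma, adjusted p under 0.05), where 30.9% of all 14022 genes tested were called higher. In saline dams 5 of 6 were called higher, where 25.6% of all genes were; without P11 saline library 2 it was again 5 of 6, where 31.9% were. No keratin was called lower. The median difference over all genes was 0.10 in LPS dams and 0.05 in saline dams. The smallest called differences were those of Krt18, and the largest those of Krt17. The 2 comparisons share no library, but dams milked at both times contribute to both sides of each.

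**Figure D1:**
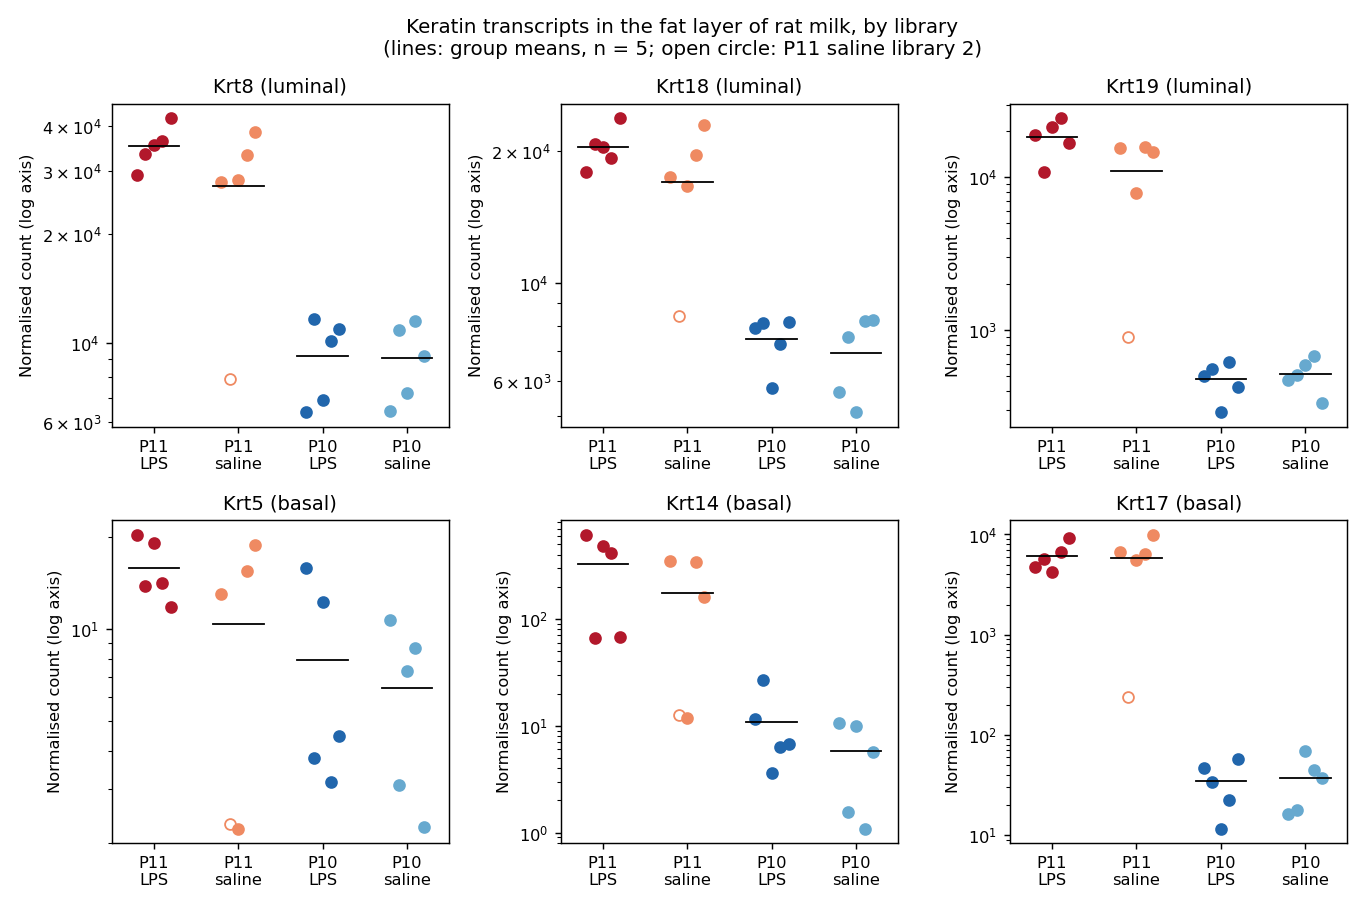
Normalised count (log axis) of each keratin in every library, P11 LPS, P11 saline, P10 LPS and P10 saline from left to right, with lines at the group means (n = 5) and P11 saline library 2 as an open circle. Krt19 and Krt17 at P11 lay above every P10 library, library 2 of the saline group included, while the P11 and P10 values of Krt5 overlapped.

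Krt8, the type II luminal keratin, had 29155, 33427, 35284, 36300 and 41939 normalised counts in P11 LPS libraries 1 to 5 and 27863, 7928, 28249, 33208 and 38554 in P11 saline libraries 1 to 5. It had 6401, 11647, 6936, 10107 and 10880 in P10 LPS libraries and 6449, 10868, 7244, 11468 and 9150 in P10 saline libraries. All P11 libraries but saline library 2 lay above all P10 libraries, and that library lay inside the P10 range. The difference was 1.96 ± 0.32 on the log2 scale in LPS dams (SE; limma, adjusted p = 6.73e-05) and 1.44 ± 0.32 in saline dams (adjusted p = 0.00126). Without library 2 the saline difference was 1.83 ± 0.19 (adjusted p = 1.45e-07).

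Krt18, the type I partner of Krt8, moved by less. It averaged 20415 ± 2175 normalised counts in P11 LPS libraries and 17021 ± 5387 in P11 saline libraries (19171 ± 2806 without library 2), against 7451 ± 994 in P10 LPS and 6954 ± 1490 in P10 saline libraries (SD, n = 5 each, 4 without library 2). Its log2 difference was 1.45 ± 0.21 in LPS dams (limma, adjusted p = 2.8e-05) and 1.23 ± 0.21 in saline dams (adjusted p = 0.000217), or 1.47 ± 0.15 without library 2 (adjusted p = 9.53e-08). Here the P11 and P10 libraries did not overlap in either comparison, and saline library 2, at 8420, was just above the highest P10 saline library at 8271. The ratio of Krt8 to Krt18 counts had a median of 1.72 at P11 LPS and 1.68 at P11 saline (1.69 without library 2), against 1.33 at P10 LPS and 1.40 at P10 saline.

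Krt19, a small type I keratin of the luminal layer, showed the largest difference of the 3 luminal genes. It had 19054, 10841, 21490, 24374 and 16885 normalised counts in P11 LPS libraries and 15516, 895, 7931, 15770 and 14574 in P11 saline libraries. The P10 values were 502, 553, 288, 617 and 424 in LPS libraries and 472, 510, 591, 677 and 331 in saline libraries. Every P11 library was above every P10 library, saline library 2 by the least. The log2 difference was 5.03 ± 0.53 in LPS dams (limma, adjusted p = 5.58e-06) and 3.72 ± 0.53 in saline dams (adjusted p = 8.61e-05), or 4.47 ± 0.25 without library 2 (adjusted p = 2.11e-11). The mean count at P11 was 38.9 times that at P10 in LPS dams and 21.2 times in saline dams (26.1 times without library 2). Krt19 counts were 1.05 times those of Krt18 in the median P11 LPS library and 0.635 times in the median P11 saline library (0.720 without library 2), against 0.0635 at P10 LPS and 0.0825 at P10 saline.

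Krt17, the basal and injury-associated type I keratin, had 4723, 5703, 4261, 6679 and 9273 normalised counts in P11 LPS libraries and 6703, 239, 5615, 6374 and 9941 in P11 saline libraries. The P10 libraries held 46.2, 34.1, 11.6, 22.2 and 58.1 in LPS dams and 16.1, 17.8, 68.4, 44.6 and 37.3 in saline dams. No P11 library overlapped a P10 library, and saline library 2 lay between the days. The log2 difference was 5.89 ± 0.61 in LPS dams (limma, adjusted p = 5.58e-06), the 8th highest of all genes tested, and 5.21 ± 0.61 in saline dams (adjusted p = 5.01e-05), the 9th highest. Without library 2 the saline difference was 6.10 ± 0.23 (adjusted p = 2.28e-13). The mean count at P11 was 178 times that at P10 in LPS dams and 157 times in saline dams (194 times without library 2).

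Krt14, the type I keratin of the classical basal pair, had 614, 66.5, 481, 411 and 67.8 normalised counts in P11 LPS libraries and 348, 12.7, 11.9, 342 and 159 in P11 saline libraries. At P10 it had 11.6, 26.5, 3.62, 6.35 and 6.70 in LPS libraries and 10.7, 1.55, 9.97, 1.09 and 5.65 in saline libraries. The days did not overlap under either injection, but P11 values were spread widely. LPS libraries 2 and 5 were well below the other LPS libraries. Saline libraries 2 and 3 were just above the highest P10 saline library, at 10.7, and below P10 LPS library 2, at 26.5. The log2 difference was 2.24 ± 0.51 in LPS dams (limma, adjusted p = 0.00121) and 1.62 ± 0.51 in saline dams (adjusted p = 0.0134), or 1.96 without library 2 (adjusted p = 0.00204). The saline call was missed without P11 saline library 4 (1.33, adjusted p = 0.0505) and under quantile normalisation (1.35, adjusted p = 0.0512). On the log2 scale of the count plus 1, which compresses low counts less, the Krt14 difference was 4.52 in LPS dams and 3.90 in saline dams.

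Krt5, the type II partner of Krt14, was rare in every library. It had 20.4, 13.8, 19.1, 14.2 and 11.8 normalised counts in P11 LPS libraries and 13.1, 2.30, 2.22, 15.5 and 18.9 in P11 saline libraries. The P10 values were 15.9, 3.79, 12.3, 3.17 and 4.46 in LPS libraries and 10.7, 3.10, 7.31, 8.69 and 2.26 in saline libraries. The groups overlapped on both sides, and saline libraries 2 and 3 were again low. The log2 difference was 0.27 (95% interval 0.00 to 0.55; limma, adjusted p = 0.0843) in LPS dams and 0.11 (-0.16 to 0.39; adjusted p = 0.499) in saline dams, or 0.19 without library 2 (adjusted p = 0.223). The LPS call was met without P10 LPS library 1 (0.34, adjusted p = 0.0374). Krt5 was also called higher when each library was scaled to 1000000 counts (0.55, adjusted p = 0.00032, in LPS dams and 0.32, adjusted p = 0.0221, in saline dams). The sign turned under quantile normalisation (-0.15 in LPS dams and -0.20 in saline dams), and in saline dams also under median centring (-0.11).

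Scaling mattered for the size of all these differences. Every library was scaled to the same total, and log2 of the scaled count plus 1 was taken. The median of all genes then moved to 1.07 in LPS dams and 0.69 in saline dams. Of all genes, 4332 were called higher and 3081 lower in LPS dams and 3588 higher and 2969 lower in saline dams. After that scaling these counts were 9818 and 289 in LPS dams and 8038 and 456 in saline dams, after median centring 2696 and 5206 in LPS dams and 2478 and 5035 in saline dams, and after quantile normalisation 3222 and 3466 in LPS dams and 2868 and 3519 in saline dams. On the scale of equal totals the Krt8 difference was 3.62 in LPS dams and 2.57 in saline dams. The Krt18 difference was 3.11 in LPS dams and 2.36 in saline dams. As a share of all normalised counts, Krt8 held 1372 ± 266 per 1000000 at P11 LPS and 1036 ± 554 at P11 saline (1259 ± 279 without library 2), against 114 ± 36.2 at P10 LPS and 141 ± 45.6 at P10 saline. The direction of Krt8, Krt18, Krt19, Krt14 and Krt17 was the same under scaling to 1000000 counts, quantile normalisation and median centring.

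LPS against saline gave no call among the 6 keratins on either day. At P11 0 of 6 were called, where 0.0856% of all genes were (12 genes by limma; 1004 genes at an unadjusted p under 0.05), and likewise 0 of 6 without library 2, where 0.0642% were (9 genes; 1445 at an unadjusted p under 0.05). At P10 0 of 6 were called, where 0.0% were (0 genes; 622 at an unadjusted p under 0.05). The difference between the LPS effects of the 2 days was called for 0 of 6, where 0.0357% of all genes were called (5 genes; 635 at an unadjusted p under 0.05), and the adjusted p was 0.968 for each keratin (0.67 to 0.983 without library 2).

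**Figure D2:**
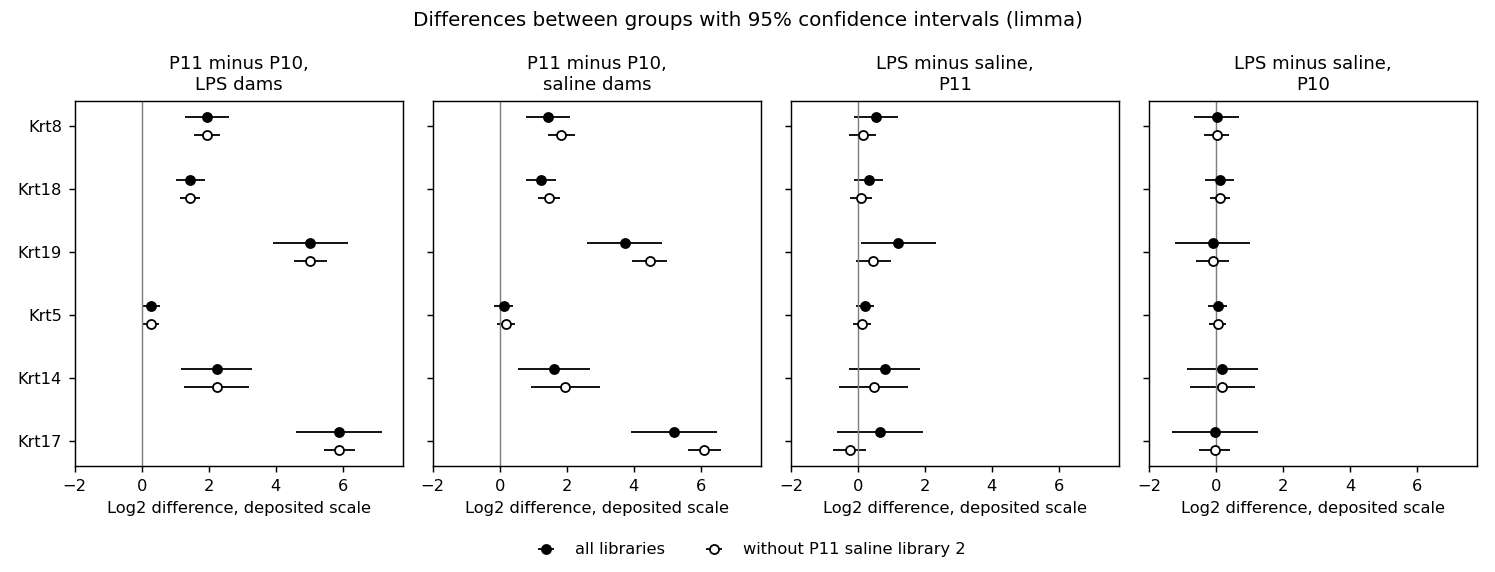
Log2 difference of each keratin (horizontal axis, deposited scale) with its 95% confidence interval from limma, for P11 minus P10 in LPS and in saline dams and for LPS minus saline at P11 and at P10, with all libraries (filled) and without P11 saline library 2 (open). The intervals of the day comparisons lay above 0 for every keratin but Krt5 in saline dams, and leaving out library 2 narrowed them and brought the LPS differences at P11 closer to 0.

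Krt19 had the lowest unadjusted p of the 6 for LPS at P11. It averaged 18529 ± 5124 normalised counts in LPS libraries and 10937 ± 6470 in saline libraries (SD, n = 5 each). The log2 difference was 1.21 (95% interval 0.09 to 2.32; limma, unadjusted p = 0.0352, adjusted p = 0.672). Without library 2 the saline mean was 13448 ± 3714 and the difference 0.46 (-0.05 to 0.97; adjusted p = 0.53). LPS libraries 1, 3, 4 and 5 lay above every saline library, and LPS library 2 lay within the saline range. At P10 the Krt19 difference was -0.10 (-1.22 to 1.01; adjusted p = 1.0).

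The other keratins had wide intervals that held differences of both signs. At P11 the LPS difference of Krt8 was 0.54 (-0.12 to 1.20; limma, adjusted p = 0.753), and 0.14 (-0.26 to 0.55) without library 2. That of Krt18 was 0.33 (-0.11 to 0.76), and 0.09 (-0.22 to 0.41) without library 2. For Krt14, which averaged 328 ± 249 normalised counts in LPS and 175 ± 167 in saline libraries, it was 0.80 (-0.26 to 1.87), and 0.47 (-0.56 to 1.50) without library 2. For Krt5 it was 0.21 (-0.06 to 0.48), and 0.13 (-0.14 to 0.40) without library 2. The sign of the Krt17 difference rested on library 2: it was 0.65 (-0.64 to 1.94) with it and -0.24 (-0.73 to 0.25) without it. At P10 the 6 differences ran between -0.10 and 0.19. Their intervals narrowed without library 2 of P11 saline, for Krt19 to -0.59 to 0.38.

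Luminal was then set against basal as the mean deposited log2 value of Krt8, Krt18 and Krt19 minus that of Krt5, Krt14 and Krt17. It was 5.44 ± 0.29 in P11 LPS libraries and 5.30 ± 0.29 in P11 saline libraries (5.33 ± 0.32 without library 2), against 5.43 ± 0.26 in P10 LPS and 5.49 ± 0.35 in P10 saline libraries (SD, n = 5 each, 4 without library 2). The groups differed by 0.01 for P11 minus P10 in LPS dams, by -0.18 in saline dams, by 0.14 for LPS minus saline at P11 and by -0.06 at P10, each within 1 SD between libraries. Both means moved up together: the luminal mean was 14.52 at P11 LPS and 13.82 at P11 saline (14.28 without library 2), against 11.70 at P10 LPS and 11.69 at P10 saline. The basal mean was 9.07 at P11 LPS and 8.52 at P11 saline (8.95 without library 2), against 6.27 at P10 LPS and 6.21 at P10 saline.

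That stable gap belonged to the deposited scale. On the log2 scale of the count plus 1, the gap was 6.38 at P11 LPS and 6.73 at P11 saline (6.54 without library 2), against 7.89 at P10 LPS and 8.21 at P10 saline. The gap was thus smaller at P11 by 1.51 in LPS dams and by 1.48 in saline dams, with the basal mean gaining more than the luminal mean. This did not hold gene by gene. On that scale Krt17 rose by 7.57 in LPS dams and 6.76 in saline dams. Krt5 rose by 1.13 and 0.39, less than Krt18, the luminal gene that rose least (1.46 and 1.24). Scaling each library to 1000000 counts, then taking log2 of the scaled count plus 1, turned the direction. The gap was then larger at P11 by 0.78 in LPS dams and by 0.33 in saline dams. That run changed the log scale as well as the totals. A shift shared by all genes of a library cancels in the gap, and median centring left the gap unchanged. Against the unscaled log2 of the count plus 1, scaling can therefore change the gap only through the added 1. The 3 basal keratins averaged only 0.0897 to 0.596 scaled counts at P10, where adding 1 compresses a rise. Quantile normalisation of the deposited values gave 0.70 in LPS dams and 0.30 in saline dams. On the deposited scale Krt17 had the largest difference of the 3 basal genes and Krt5 the smallest, under both injections. The mean of either list is a description of these libraries and carries no test.

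**Figure D3:**
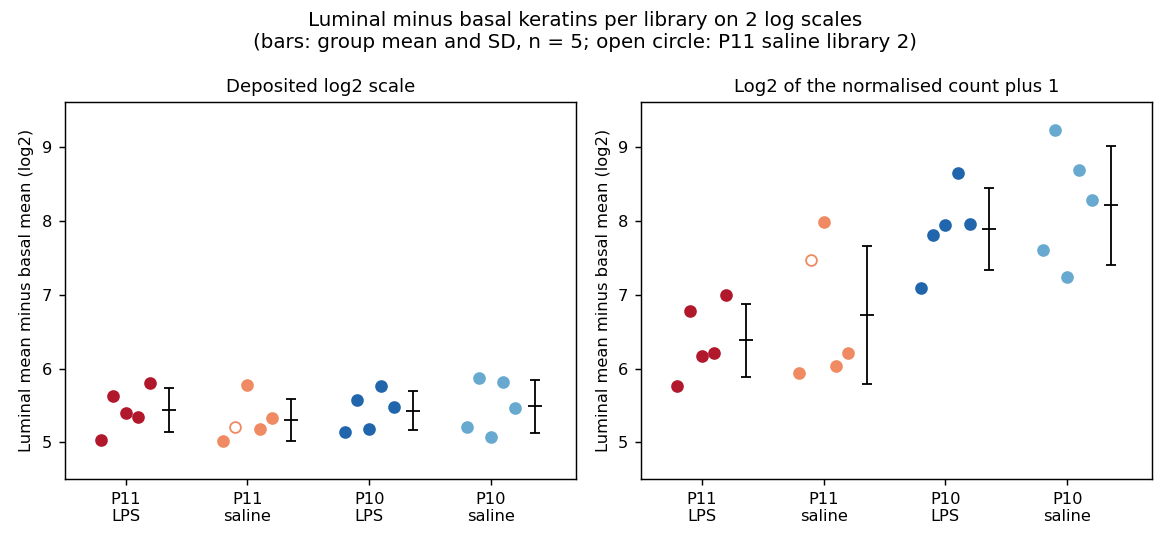
Mean of Krt8, Krt18 and Krt19 minus mean of Krt5, Krt14 and Krt17 in every library (vertical axis, log2), on the deposited scale (left) and as log2 of the normalised count plus 1 (right), with bars for the group mean and SD (n = 5) and library 2 of P11 saline as an open circle. The 4 groups overlap fully on the left, while on the right the P11 groups average 6.38 and 6.73 and the P10 groups 7.89 and 8.21.

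Among the 9 P11 libraries without saline library 2, the keratins did not vary as one. Over the 15 pairs, 3 had a Pearson correlation past the threshold (exact permutation test, two-sided, adjusted over the 15 pairs), and 0 did so by Spearman's rho. Krt8 and Krt18 went together, with r = 0.938 (exact permutation p = 0.000438, adjusted p = 0.00657) and rho = 0.867 (p = 0.00451, adjusted p = 0.0676), and r was 0.892 without the 2 libraries farthest from the Krt8 median. Krt14 went with Krt19, a luminal gene, at r = 0.839 (exact permutation p = 0.00359, adjusted p = 0.0269) and rho = 0.817 (p = 0.0108, adjusted p = 0.0808), and r was 0.705 without the 2 farthest libraries. Krt14 went with its partner Krt5 at r = 0.775 (exact permutation p = 0.00863, adjusted p = 0.0432) and rho = 0.767 (p = 0.0214, adjusted p = 0.107), and r fell to 0.411 without the 2 farthest, so that relation rested on them. Krt14 and Krt17, both basal, had r = -0.341 (exact permutation p = 0.364, adjusted p = 0.606) and rho = -0.317 (p = 0.41, adjusted p = 0.683), and r was -0.874 without the 2 libraries farthest from the Krt14 median. All values of a library share its scaling. The permutations ignored the injection, so each r mixes variation within a group with the difference between groups. With the means of P11 LPS and P11 saline taken out, r was 0.934 for Krt8 and Krt18. It was 0.86 for Krt14 and Krt19 and 0.764 for Krt14 and Krt5. Krt17 then had r = 0.791 with Krt8 and 0.763 with Krt18 (0.58 and 0.598 before), and -0.291 with Krt14. These values were not tested.

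**Figure D4:**
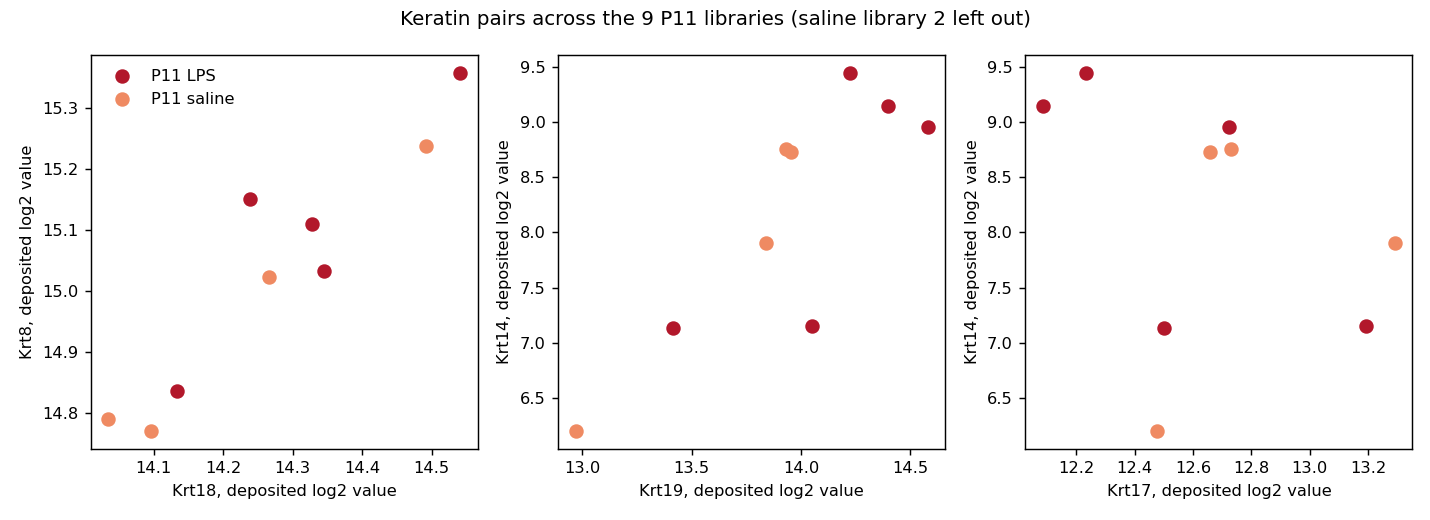
Deposited log2 values of Krt8 against Krt18, Krt14 against Krt19 and Krt14 against Krt17 in the 9 P11 libraries without saline library 2 (5 LPS, 4 saline). The points follow a rising line in the first panel (r = 0.938) and slope down loosely in the third (r = -0.341, or -0.874 without the 2 libraries farthest from the Krt14 median); in the second the lowest point is P11 saline library 3.

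P11 saline library 3 showed that split most plainly. It held 11.9 normalised counts of Krt14 and 2.22 of Krt5, the lowest P11 values of both genes, and 7931 of Krt19, below the other P11 libraries except saline library 2. Its Krt17 count, 5615, and its Krt8 count, 28249, were within the range of the other P11 libraries. Acta2, the smooth muscle actin of myoepithelial cells, was at 9905 normalised counts in this library, below saline libraries 1, 4 and 5 (12374, 10999 and 12627) and within the LPS range of 7124 to 11167.

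Of 39 other genes with a keratin symbol, 12 were listed at 0 in every library and 27 were tested. In LPS dams 14 of the 27 were called higher at P11 and 0 lower (limma), where 30.9% of all genes were called higher. In saline dams 11 were called higher and 0 lower, where 25.6% of all genes were called higher (12 without library 2, where 31.9% were). A filter at a mean value of 6.5 over all libraries left 10 of them, of which 9 were called higher in LPS dams. Of all genes passing it, 3236 were called higher and 3052 lower in LPS dams. Genes near 0 at P10 pass that filter only through high P11 values, so nothing is concluded from this count. Krt23, a type I keratin, had the highest mean of the 39, with 3962 ± 1762 normalised counts at P11 LPS and 3319 ± 1941 at P11 saline, against 63.4 ± 47.8 at P10 LPS and 32.3 ± 14.1 at P10 saline. Its log2 difference was 4.87 ± 0.65 in LPS dams (limma, adjusted p = 1.72e-05) and 4.46 ± 0.65 in saline dams (adjusted p = 9.19e-05), or 5.38 ± 0.28 without library 2 (adjusted p = 8.47e-12).

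Several of the next ranked are known from the hair of humans and mice rather than from the mammary gland. Krt75, a hair follicle keratin, averaged 1147 normalised counts at P11 LPS and 985 at P11 saline, against 13.1 at P10 LPS and 4.75 at P10 saline. Krt73, of the inner root sheath of the hair, averaged 748 at P11 LPS and 527 at P11 saline, against 0.318 at P10 LPS and 0.620 at P10 saline. Krt84, a hair keratin, averaged 588.5 at P11 LPS and 434 at P11 saline, against 3.85 at P10 LPS and 2.08 at P10 saline. The highest P10 library held 40.2 of Krt75, 3.10 of Krt73 and 8.93 of Krt84. Krt80, an epithelial keratin, averaged 1014 at P11 LPS and 807.5 at P11 saline, against 25.5 at P10 LPS and 5.54 at P10 saline. Krt16, which like Krt17 is switched on in injured skin, averaged 306 at P11 LPS and 271 at P11 saline, against 1.48 at P10 LPS and 3.08 at P10 saline. All 5 passed the test in both day comparisons (limma, adjusted p between 9.18e-06 and 0.000294), and all 5 had between 2.30 and 12.7 normalised counts in P11 saline library 2. Close paralogs such as Krt14, Krt16 and Krt17, or Krt5 and Krt75, share long coding stretches. How reads that fit several of them were counted is not given in the sources used here, so the split between them is uncertain.

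**Figure D5:**
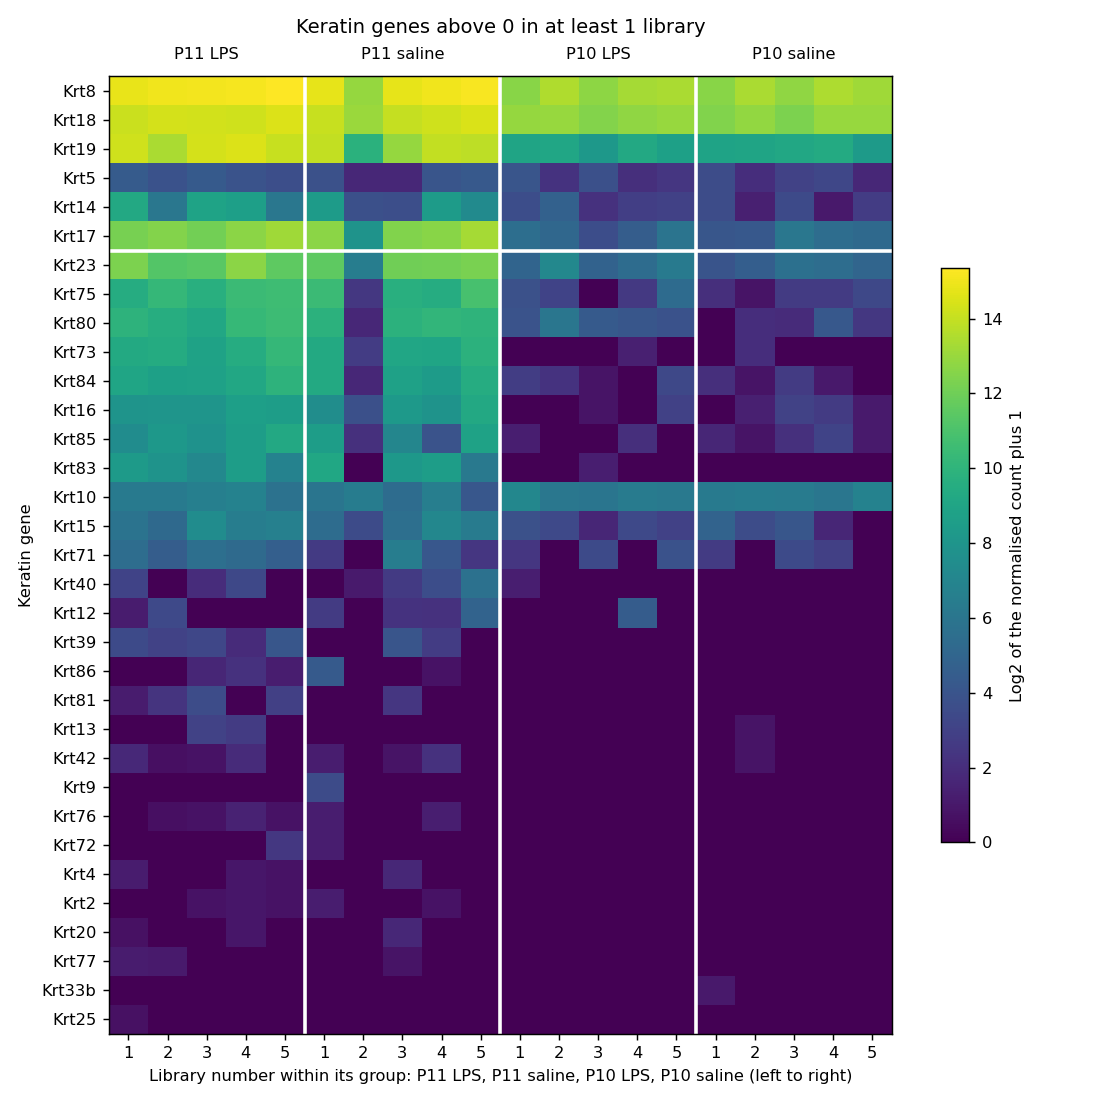
Log2 of the normalised count plus 1 (colour) for every keratin gene above 0 in at least 1 library, by symbol as deposited, in the 5 libraries of P11 LPS, P11 saline, P10 LPS and P10 saline from left to right, with the 6 keratins of the luminal and basal groups above the line. Most rows are brighter at P11, P11 saline library 2 resembles the P10 columns, and Krt10 lacks the pattern by day.

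The authors' deposited tables of LPS against saline, which list 1024 genes for P10 and 1085 for P11, hold 0 of the 6 keratins. Of the other keratins named here, the authors' deposited table for P10 lists Krt80, with a log2 fold change of 2.23 and a p-value of 0.00535, and gives it no adjusted p.

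Of 12 tested genes that anchor keratin filaments, 8 were called higher and 1 lower at P11 in LPS dams, where 30.9% of all genes were called higher, and likewise 8 and 1 in saline dams, where 25.6% were (limma), with a median difference of 1.41 in LPS dams and 1.03 in saline dams. Plec, which encodes the linker plectin that ties keratin to desmosomes and hemidesmosomes, averaged 8720 ± 2478 normalised counts at P11 LPS and 6668 ± 4149 at P11 saline, against 916 ± 395 at P10 LPS and 793.5 ± 327 at P10 saline. Its log2 difference was 3.18 ± 0.56 in LPS dams (adjusted p = 0.000148) and 2.48 ± 0.56 in saline dams (adjusted p = 0.00163), or 3.24 ± 0.29 without library 2 (adjusted p = 1.85e-08). Jup, the desmosome protein plakoglobin, rose by 1.05 ± 0.23 in LPS dams (adjusted p = 0.00106) and by 0.69 ± 0.23 in saline dams (adjusted p = 0.0204). Itga6, the hemidesmosome integrin alpha 6, was the member that fell by 0.48 ± 0.18 in LPS dams (adjusted p = 0.034) and fell by 0.74 ± 0.18 in saline dams (adjusted p = 0.0027). Dsp, the desmosome protein desmoplakin to which keratins attach, was listed at 0 in every library.

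Other markers of the myoepithelial layer were divided. Of 15 tested, 7 were called higher and 1 lower in LPS dams, where 30.9% of all genes were called higher. In saline dams 6 were called higher and 1 lower, where 25.6% of all genes were called higher (8 and 2 without library 2, where 31.9% were). Acta2 averaged 9509 ± 1577 normalised counts at P11 LPS and 9625 ± 4283 at P11 saline, against 1286 ± 387 at P10 LPS and 1284 ± 268 at P10 saline. Its log2 difference was 2.83 ± 0.34 in LPS dams (limma, adjusted p = 1.02e-05) and 2.63 ± 0.34 in saline dams (adjusted p = 6.29e-05). Itgb4, the integrin beta 4 of hemidesmosomes, rose by 2.64 ± 0.41 in LPS dams (adjusted p = 4.6e-05) and by 2.32 ± 0.41 in saline dams (adjusted p = 0.000265). Itgb4 is also among the anchoring genes counted above. Mylk, the myosin light chain kinase of contractile cells, fell by 0.63 ± 0.25 in LPS dams (adjusted p = 0.0383) and fell by 0.99 ± 0.25 in saline dams (adjusted p = 0.00306).

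Luminal markers other than keratins went both ways. Of 20 tested, 10 were called higher and 8 lower in LPS dams, where 30.9% of all genes were called higher, and 11 and 7 in saline dams, where 25.6% were (limma). Cldn4, a tight junction claudin, averaged 69246 normalised counts at P11 LPS and 72138 at P11 saline (89312 without library 2), against 7270 at P10 LPS and 4584 at P10 saline, with log2 differences of 3.46 ± 0.67 in LPS dams (adjusted p = 0.000325) and 3.36 ± 0.67 in saline dams (adjusted p = 0.000639; 4.29 ± 0.32 without library 2). Elf5, the transcription factor of the milk-secreting alveolar cell, averaged 11104 at P11 LPS and 17872 at P11 saline (9615 without library 2), against 55880 at P10 LPS and 58213 at P10 saline. It fell by 2.45 ± 0.42 in LPS dams (adjusted p = 0.000112) and fell by 2.19 ± 0.42 in saline dams (adjusted p = 0.000492). Krt8, Krt18 and Krt19 thus went with the members that rose.

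Markers of other cells were read against the same shares of all genes called higher, 30.9% in LPS dams and 25.6% in saline dams. Of 14 neutrophil genes, 11 were called higher and 0 lower in LPS dams and 8 and 0 in saline dams (limma), and their summed counts ran over 14400 to 111000 at P11 LPS and 11700 to 71300 at P11 saline (29300 to 71300 without library 2), against 347 to 14400 at P10 LPS and 2920 to 8820 at P10 saline. Of 13 macrophage genes tested, 5 were called higher in LPS dams and 4 in saline dams, 0 lower, shares near those of all genes. Their sums ran over 8040 to 15800 at P11 LPS and 3180 to 46000 at P11 saline (8380 to 46000 without library 2), against 2500 to 4600 at P10 LPS and 2390 to 3160 at P10 saline. Marco, a macrophage scavenger receptor, was listed at 0 in every library. Of 11 skin keratinocyte genes tested, 7 were called higher in LPS dams and 8 in saline dams, 0 lower. Krt2, Krt10, Krt15 and Krt16 in this list were already counted among the other keratin genes. Values were found for 14 of the 22 genes of the skin list. There were none for Lor, Flg, Flg2, Krtdap, Dsg1, Dsc1, Calml5 and Asprv1. Sums of the skin list ran over 1870 to 3200 at P11 LPS and 216 to 3660 at P11 saline (1970 to 3660 without library 2). They were 85.5 to 183 at P10 LPS and 133 to 232 at P10 saline. The cornification genes Krt1, Ivl and Casp14 were listed at 0 in every library, and Sbsn, a suprabasal skin gene, averaged 1759 at P11 LPS and 1363 at P11 saline, against 22.3 at P10 LPS and 31.3 at P10 saline. LOC683313, named Krt6c in the RefSeq gene table, averaged 200.5 at P11 LPS and 159 at P11 saline, against 11.9 at P10 LPS and 20.2 at P10 saline. What part these cells have in the keratin differences was not tested.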

How the data were processed

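RNA of the milk fat layer was sequenced as 20 libraries in 4 groups of 5, as stranded mRNA libraries per the labels' protocols. Per the submitters' processing notes, DESeq2 was used, with rat assembly rn6. The aligner, counter and annotation were not given in the sources used here. In their table, the authors deposited log2-scale values for 16748 genes in 20 columns, each assigned to its group by name. Their name calls them rlog, but they share 1 lowest value (5.46, held by 30.4% of entries) and have the form of a variance-stabilizing transformation. Inverting that form gave normalised counts. Checked against the authors' base means for 1024 genes, the log2 ratio was 0.225 ± 0.0043 (SD), so levels agree up to a constant factor. They are not whole reads, and counting error is unknown. The authors also deposited 1 table per day for LPS against saline, which, per the file headers, holds a mean count in another unit, a log2 fold change, the Wald statistic (a score), and each p-value before and after adjustment. These tables entered no test.

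One model with 4 group means was fitted per gene to the deposited log2 values with limma 3.58.1 in R 4.3.3 (empirical Bayes with a mean trend), over the 14022 genes above the lowest value in at least 1 library. The other 2726 were left out. Two-sided p-values were adjusted over these genes (Benjamini-Hochberg), and calls were made under 0.05. Scripts were tested on simulated data. The labels describe biological replicates, but the columns name no dam, so p-values treat libraries of both days as independent. The keratins and marker lists were chosen with earlier results of these data known. Named besides the keratins were the 6 other keratin genes and the 3 members of each of 7 marker lists with the highest mean count, and the 3 genes most correlated with each keratin; 2 genes that this rule names are not reported here. The range of libraries tried, the scalings and the filter are in the closing section. Leaving out P11 saline library 2 together with another scaling, and the correlations between keratin pairs, were added after seeing the data.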

Additional observations from a re-analysis of the deposited data

Results flagged for a closer look

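In 3 of the 24 combinations of keratin and group, 1 library stood apart from the other 4 by more than Dixon's 95% limit for 5 samples (0.71), and in all 3 it was P11 saline library 2. Chance alone flags about 1 in 20 such groups, but the keratins share their libraries, so the 24 combinations are not independent. Its deposited log2 value was 12.97 for Krt8 (gap 0.794 of the group's range), 9.939 for Krt19 (0.755) and 8.328 for Krt17 (0.836). Each was the lowest value of its group.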

How the results depend on the processing

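In the day comparisons, 4 to 6 of the 6 keratins were called in saline dams and 5 to 6 in LPS dams under every alternative run. In the LPS comparisons 0 were called. A filter at a mean of 6.5 left 5 to test, without Krt5. All 6 were called when scaled to 1000000 counts, where 9818 of 14022 genes were called higher in LPS dams and 8038 in saline dams. Quantile normalisation gave 4 in saline dams, where 2868 genes were called higher. Over all genes, the 12 calls for LPS at P11 were 0 to 31 under the other scalings, filters and models, and 52 scaled to 1000000 counts without P11 saline library 2. Values on the log2 scale that turned sign belonged to differences not called with all libraries. For LPS at P11, Krt17 gave -0.24 without P11 saline library 2 (range over all libraries left out in turn -0.24 to 0.999), -0.0846 with library weights, and -0.26 and -0.16 without that library after scaling to 1000000 counts and quantile normalisation. For LPS at P10, Krt8 gave -0.30 scaled to 1000000 counts, -0.0208 under quantile normalisation (-0.0208 also without that library) and -0.0502 with weights (-0.0929 to 0.14 with libraries left out), and Krt18 gave -0.21 scaled to 1000000 counts. With libraries left out, P10 values ran over -0.23 to 0.0379 for Krt19, -0.0215 to 0.10 for Krt5 and -0.13 to 0.0825 for Krt17. Krt5 by day gave -0.20 (quantile), -0.11 (median centring) and -0.24 (quantile without library 2) in saline dams, and -0.15 and -0.14 (quantile, with and without library 2) in LPS dams. The difference of LPS effects ran over -0.0201 to 0.34 for Krt18 and -0.21 to 1.03 for Krt17, which gave -0.0943 and -0.0888 without library 2 under both other scalings. Luminal minus basal moved to -0.34 for LPS at P11 (log2 of the count plus 1); by day it moved to 0.30 (quantile), 0.33 (1000000 counts) and -1.48 (count plus 1) in saline dams and to 0.70, 0.78 and -1.51 in LPS dams. Where a value shows no cause, the cause was not tested. No paired analysis was possible because the columns carry no dam. The depth behind the rare genes Krt5 and Krt14 at P10 is unknown.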

Other observations

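Of 12 other intermediate filament genes tested, 8 were called higher at P11 in LPS dams, where 30.9% of all genes were called higher, and 7 in saline dams, where 25.6% were, and 0 lower in either (limma), while the neurofilament genes Nefl and Nefm were listed at 0 in every library. Nes, the filament protein nestin, averaged 2842 ± 1211 normalised counts at P11 LPS and 1957 ± 1305 at P11 saline, against 619 ± 278 at P10 LPS and 360 ± 157 at P10 saline. Its log2 difference was 2.06 ± 0.45 in LPS dams (adjusted p = 0.000872) and 1.95 ± 0.45 in saline dams (adjusted p = 0.00175). Lmnb1, the nuclear lamin B1, rose by 2.35 ± 0.32 in LPS dams (adjusted p = 2.1e-05) and by 1.97 ± 0.32 in saline dams (adjusted p = 0.000192). Lmna, which encodes lamins A and C, rose by 0.32 ± 0.12 in LPS dams (adjusted p = 0.0262), and its difference in saline dams was 0.00 ± 0.12 (adjusted p = 1.0).

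Among the marker lists, the neutrophil genes S100a8 and Csf3r followed the day. S100a8, a calcium-binding protein of neutrophils, averaged 4442 normalised counts at P11 LPS and 3651 at P11 saline (4550 without library 2), against 75.1 at P10 LPS and 32.6 at P10 saline. Csf3r, the receptor of the neutrophil growth factor G-CSF, averaged 2141 at P11 LPS and 3807 at P11 saline (4751 without library 2), against 85.0 at P10 LPS and 30.3 at P10 saline. Lcn2, an iron-trapping protein that neutrophils and epithelium both make, was called in LPS dams (3.33 ± 0.95, limma, adjusted p = 0.00624), and its difference in saline dams was 2.03 ± 0.95 (adjusted p = 0.0855). Of the macrophage genes, Lyz2, a lysozyme, rose by 2.94 ± 0.88 in LPS dams (adjusted p = 0.00872) and by 3.84 ± 0.88 in saline dams (adjusted p = 0.00167). Cd14, the LPS co-receptor, rose by 2.59 ± 0.52 in LPS dams (adjusted p = 0.000397) and by 2.10 ± 0.52 in saline dams (adjusted p = 0.00276). Cd24, a luminal surface protein, fell by 0.64 ± 0.20 in LPS dams (adjusted p = 0.0107), and gave -0.17 ± 0.20 in saline dams (adjusted p = 0.5).

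Genes most like each keratin over the 20 libraries were ranked by Pearson's r among 9774 genes that are no keratins and had a mean deposited value of at least 6.5. These libraries fall into 2 clusters by day and share their scaling within a library, so r is given as a description. Krt17 was most like Cdhr1 (r = 0.997), Tes (0.995) and Anxa2 (0.995), and 1329 genes had r over 0.9 with it. Krt19 was most like Pawr (0.991), Prss22 (0.991) and Sbsn (0.990), Krt8 like Vtcn1 (0.981), Raly (0.979) and Ezr (0.978), and Krt18 like Prr13 (0.978) and Phlda3 (0.972). Krt14 was most like Depp1 (0.903), Nepro (0.899) and Txndc12 (0.895). Krt5 was most like Dgke (0.877), Poglut1 (0.845) and Htr2b (0.840), with 0 genes over 0.9.

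With the 4 group means taken out, Krt17 was most like Cdhr1 (0.988), Ctgf (0.982) and Msn (0.981), Krt19 like Prss22 (0.959), Lif (0.952) and Chkb (0.952), and Krt8 like Rhoc (0.946), Efhd2 (0.943) and Drap1 (0.932). Krt18 was most like Prr13 (0.878), Pld2 (0.869) and Ezr (0.867), Krt14 like Nepro (0.785), Htr2b (0.780) and Depp1 (0.777), and Krt5 like Dgke (0.826), Mbip (0.804) and Hsf2 (0.801). P11 saline library 2 takes part in these values, and no ranking was made without it, so the rankings may rest on that library. Among the keratins, r with the group means taken out depended on it for some pairs. For Krt17 and Krt19 it was 0.884 over all 20 libraries and 0.125 over the 9 P11 libraries without library 2. For Krt8 and Krt18 it was 0.903 and 0.934.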
